A study of Mus musculus with 72 samples.

Results

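Saline-treated mouse pups of postnatal day 14 were compared between 2 handling schedules, so the comparison holds no drug. The members were the 12 libraries labelled 3-trimester and saline (3-Tri saline) and the 12 labelled PND1-14 and saline (PND14 saline), 24 of the 72 brain RNA-seq libraries of the series. All 24 pups were labelled C57Bl/6 (C57Bl/6NTac in the study's methods) and each library was made from the right brain hemisphere of a pup killed 6 hours after its last saline injection. The dams of 3-Tri pups carried a subcutaneous osmotic minipump filled with saline from before mating, and their litters were moved to surrogate dams after birth. These pups then received saline injections until day 14. PND14 saline pups were injected with saline over the same postnatal days, and the labels describe no pump for their dams. The sources used here do not say whether PND14 pups were fostered. Whatever differed between the schedules, pump surgery, cohort and rearing among them, cannot be told apart. The sample IDs open with a number that is nested in the schedule: 4424 (6 libraries) and 4425 (6) in PND14 saline, 4431 (7) and 4429 (5) in 3-Tri saline. The sources used here do not say what this number stands for. Below, 4431-1 means pup 1 of ID number 4431.

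The first postnatal weeks of the mouse are a period of fast brain growth in which oligodendrocytes begin to make myelin, neurons extend processes and form synapses, and genes of immature neurons are turned down. Maternal surgery, fostering and repeated injection are stressors, and the brain responds to stress hormones through the glucocorticoid receptor, whose targets include Fkbp5, Sgk1 and Tsc22d3. A brain hemisphere is also cut from its neighbours by hand, so cerebellum, brainstem or olfactory bulb may be included to a different degree in each sample.

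Neurons (Rbfox3, Snap25, Syt1), astrocytes (Aldh1l1, Aqp4, Gja1), oligodendrocytes (Mbp, Mog) and microglia (Cx3cr1, P2ry12, Tmem119) were represented by their markers in all 24 libraries. Slc17a7, the vesicular glutamate transporter of cortical neurons, lay at 1161 to 1764 CPM (counts scaled to a common library size) in 3-Tri and at 1182 to 1418 CPM in PND14. Hoxb2, Hoxb3 and Hoxb5, markers of the caudal hindbrain, were near 0, with at most 3 counts in any library. The total count was 8174598 to 20369501 in 23 libraries and 3113919 in 4431-1, which held 21434 genes with a count against 24997 to 28253 in the others. Library 4431-1 stood apart on the first principal component of the autosomal genes (45.2% of the variance), so results are given with and without it. The median correlation between autosomal log2 CPM values was 0.992 for pairs of libraries from different schedules and 0.992 for pairs with the same ID number.

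**Figure D1:**
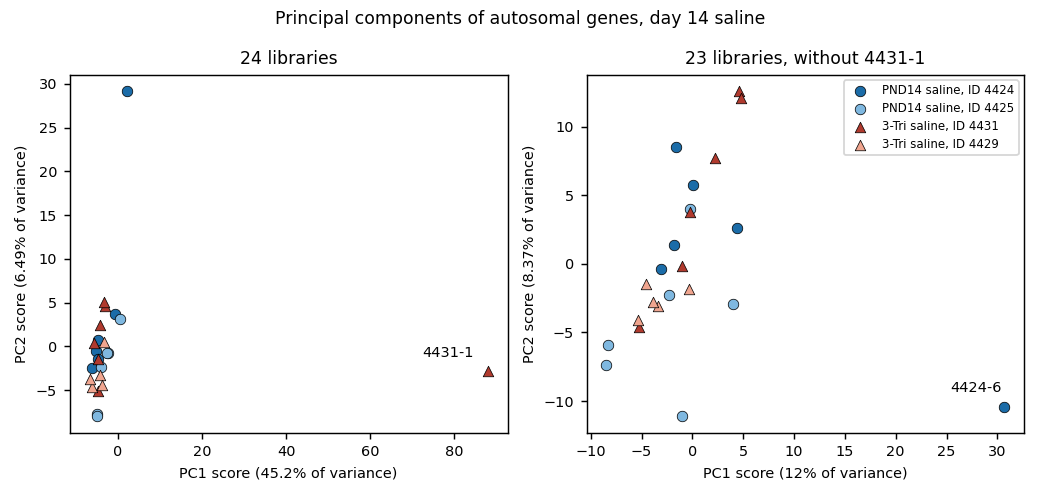
Principal component scores of the 2000 most variable autosomal genes (log2 CPM), with all 24 libraries (left) and without 4431-1 (right). Each point is a library, circles PND14 saline, triangles 3-Tri saline, shades the ID numbers. 4431-1 lies at 87.9 on the first component and the other 23 libraries between -6.73 and 2.25. Without it, 4424-6 lies at 30.7 and the other 22 between -8.45 and 4.78, and the 2 schedules are intermixed.

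The labelled sex did not match the sex genes in all libraries. Xist, the RNA that silences an X chromosome in females, and Ddx3y, a Y-linked helicase, followed the label in all 12 PND14 libraries. In 3-Tri saline, 4 libraries went against it: 4431-2 and 4429-2 were labelled male and carried Xist at 279.5 and 275.9 CPM, while 4429-4 and 4429-5 were labelled female and carried Ddx3y at 74.98 and 60.66 CPM. By these genes each schedule held 6 pups with Xist and 6 with Ddx3y. The schedule was compared as the mean over both labelled sexes, and also without these 4 libraries. The mean over labels did not cancel the mismatch for the sex genes. In it Xist had a log2 fold change of 4.97 (unadjusted p = 0.00177) and Ddx3y 4.35 (unadjusted p = 0.00987, edgeR). Their mean CPM were close, 130.4 in 3-Tri and 125.3 in PND14 for Xist and 29.86 and 28.86 for Ddx3y. In the 12 PND14 libraries fitted alone, the same edgeR method called 15 genes (0.079% of 18978) between labelled females and males. Of these, 13 lay on the X or Y chromosome, the others being Nr4a1, an immediate early gene, and Gm42047, both named after their values were seen.

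No gene passed the test between 3-Tri and PND14 saline. edgeR's quasi-likelihood test with Benjamini-Hochberg adjustment called 0 of 19683 genes (0%) at an adjusted p under 0.05, and 665 genes (3.38%) had an unadjusted p under 0.05, 332 of them higher and 333 lower in 3-Tri. DESeq2 likewise called 0 genes, with 572 (2.91%) at an unadjusted p under 0.05. Without 4431-1, edgeR called 0 of 19796 genes (0%), with 888 (4.49%) at an unadjusted p under 0.05. No gene had 12 values in 3-Tri that all lay above or below the 12 values of PND14. Within the labelled males and within the labelled females edgeR also called 0 genes, with 570 (2.9%) and 586 (2.98%) at an unadjusted p under 0.05. Without 4431-1 the counts were again 0 and 0, with 667 (3.37%) and 809 (4.09%). DESeq2 called 3 genes (0.0152%) in labelled males, Xist, Tsix and the overlapping Gm26992, and 3 (0.0152%) in labelled females, Ddx3y, Uty and Kdm5d. At an unadjusted p under 0.05 it had 2.78% of genes in males and 2.45% in females. All 6 called genes lie on the X or Y chromosome and were higher in 3-Tri, the schedule with the 4 libraries against their label.

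The size of difference that these libraries could still hold was small for most genes. The median absolute log2 fold change (log2FC) was 0.0382 and its median standard error (SE) 0.0585, and 82.7% of genes had a log2FC of less than 0.1 in size. For 17972 of the 19683 genes (91.3%) the whole 95% confidence interval of the log2FC lay between -0.5 and 0.5, and for 99.5% it lay between -1 and 1. Among the 16279 genes with a mean log2 CPM above 1, the share within 0.5 was 98.9%. Among the 3404 less abundant genes it was 55.1%, so a difference of that size was not excluded for many of them. These intervals cover the spread between pups, and the sources do not say whether pups of an ID number are littermates.

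The genes with the smallest unadjusted p were chosen after their values were seen, and all had an adjusted p of 1 (edgeR). Prkcd (chr14:30595354-30626210, mm10), a protein kinase C that is abundant in the thalamus, had 21.7, 24.9 and 29.0 CPM (lowest, median and highest) in 3-Tri and 22.98, 29.1 and 38.2 CPM in PND14. The groups overlapped, with the 5 highest values all in ID number 4424. The log2FC was -0.28 ± 0.07 (SE, unadjusted p = 0.000285), and -0.27 without 4431-1. The mean of Prkcd was 32.4 CPM in 4424 and 27.3 CPM in 4425, a log2FC of -0.27 (unadjusted p = 0.00242, adjusted p of 1, edgeR).

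Hr, a corepressor whose gene responds to thyroid hormone in the developing brain, had 55.5, 61.8 and 71.3 CPM in 3-Tri and 63.7, 67.2 and 73.0 CPM in PND14, a log2FC of -0.13 ± 0.03 (SE, unadjusted p = 0.000768). The 2 groups overlapped, and both 3-Tri means were lower, 59.5 CPM in 4429 and 64.0 CPM in 4431, against 66.2 and 69.0 CPM in 4424 and 4425. Hr was the 1 member of 16 tested on the thyroid hormone list with an unadjusted p under 0.05, and the list's median log2FC was -0.01. Prom1, which encodes the membrane protein prominin-1, had a log2FC of -0.19, and Ypel2 and Cobl, an actin nucleator of growing neurites, had -0.14 each. Among genes higher in 3-Tri, Osmr, the oncostatin M receptor, had a log2FC of 0.20 and the neuropeptide gene Nts, neurotensin, had 0.19. The sulfotransferase gene Sult2b1 had 0.21 and Cby1, an antagonist of beta-catenin, 0.13.

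Gm47283 (chrY:90784738-90816464, mm10) had the smallest p of all, with 1.47, 3.88 and 19.6 CPM in 3-Tri and 0.672, 2.03 and 3.32 CPM in PND14. Its highest value was in the shallow library 4431-1. The log2FC was 1.18 ± 0.28 (SE, unadjusted p = 0.000238), and 1.04 without 4431-1 (unadjusted p = 7.71e-05, adjusted p of 1). It was the single gene called when the counts were summed over each ID number and 2 sums were compared with 2 (log2FC of 1.09, adjusted p = 0.0377, edgeR). Srp54b, which lies between the near-identical Srp54a and Srp54c on chromosome 12, ranged from 0.931 to 15.1 CPM in 3-Tri and from 1.01 to 4.94 CPM in PND14, with a log2FC of 1.37 ± 0.41 (SE, unadjusted p = 0.00268). High and low values occurred in both 3-Tri ID numbers. Reads shared with its copies could make its level uncertain, which was not tested.

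**Figure D2:**
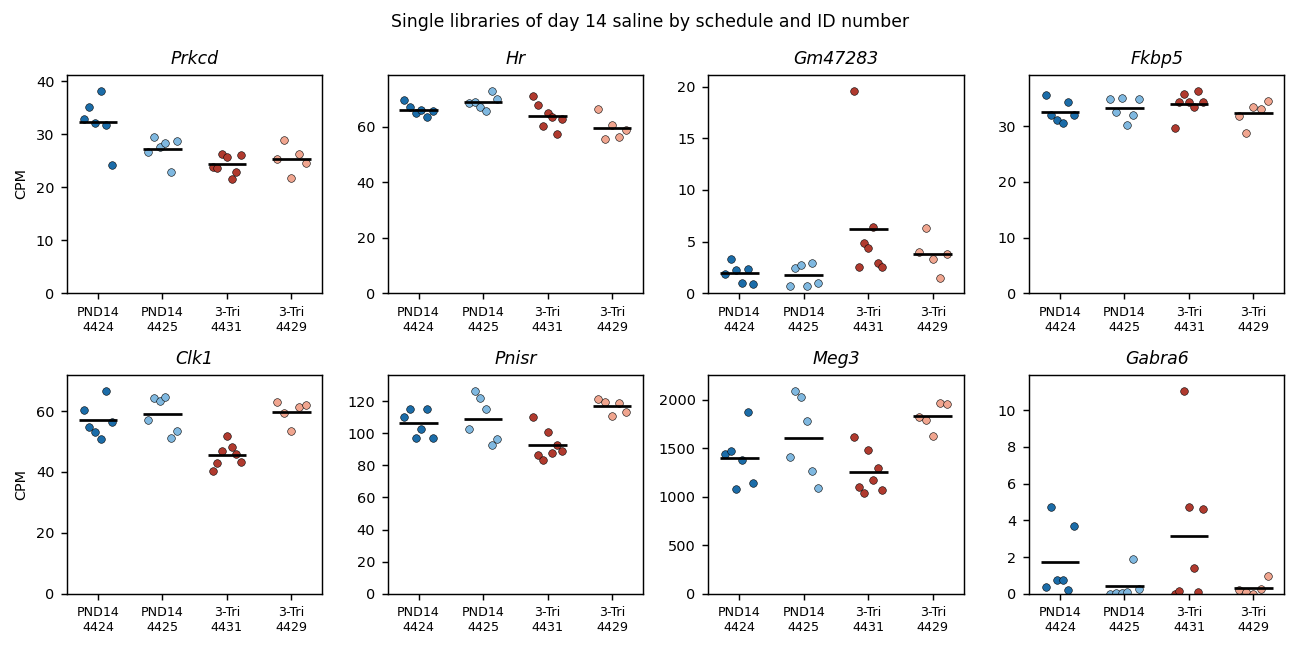
CPM of 8 genes in single libraries by schedule and ID number, with the pup number from left to right within a group and a black line at the mean. Prkcd and Hr overlap between the schedules, Gm47283 has its highest value, 19.6 CPM, in 4431-1, and Fkbp5 lies at 28.9 to 36.4 CPM in all libraries. The means of Clk1, Pnisr and Meg3 are lower in 4431 than in 4429, both of the 3-Tri schedule, and Gabra6 is above 3 CPM in 5 libraries, with 11.1 CPM in 4431-3.

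Lists of genes for 32 pathways, cell types and brain regions were read against the whole table, in which 1.69% of genes were higher and 1.69% lower at an unadjusted p under 0.05 and the median log2FC was 0.00. No list had a member that passed the adjusted test, with or without 4431-1. On the glucocorticoid list, 27 of 28 members were tested, with a median log2FC of -0.01. Fkbp5, the co-chaperone that dampens glucocorticoid receptor signalling, had 28.9, 33.8 and 36.4 CPM in 3-Tri and 30.2, 32.3 and 35.7 CPM in PND14, and its log2FC was 0.02 with a 95% interval from -0.05 to 0.10. The interval of Tsc22d3, a receptor target also known as Gilz, ran from -0.09 to 0.08. Bcl6, a transcriptional repressor, and the kinase gene Sgk3 were the members with an unadjusted p under 0.05, with log2FC of -0.12 and -0.11.

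Of the immediate early genes, which neurons switch on with activity, 24 were tested with a median log2FC of 0.01. Fos ranged from 14.3 to 37.2 CPM in 3-Tri and from 12.7 to 37.2 CPM in PND14, a log2FC of 0.12 with an interval from -0.14 to 0.37. Npas4 had 0.25 with an interval from -0.05 to 0.56, so for these variable genes a moderate difference could not be told from none. Klf4 had a log2FC of -0.21 (unadjusted p = 0.0367), with its lowest value, 1.43 CPM, in 4431-1, and -0.17 without that library (unadjusted p = 0.0182). The 20 circadian clock genes had a median of -0.01, and Bhlhe40, a repressor of the clock, had -0.11 (unadjusted p = 0.0107).

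All 8 opioid receptor and peptide genes were tested. Oprm1, the mu opioid receptor and the main target of morphine, had 65.0, 71.4 and 79.7 CPM in 3-Tri and 65.2, 71.4 and 77.5 CPM in PND14, with a 95% interval of the log2FC from -0.07 to 0.07. The interval of Penk, which encodes the enkephalins, ran from -0.09 to 0.08. Pnoc, the precursor of nociceptin, had 11.7, 13.4 and 20.3 CPM in 3-Tri and 9.31, 11.7 and 14.1 CPM in PND14, a log2FC of 0.17 (unadjusted p = 0.0172). Without 4431-1 the log2FC of Pnoc was 0.15 (unadjusted p = 0.0201, edgeR).

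**Figure D3:**
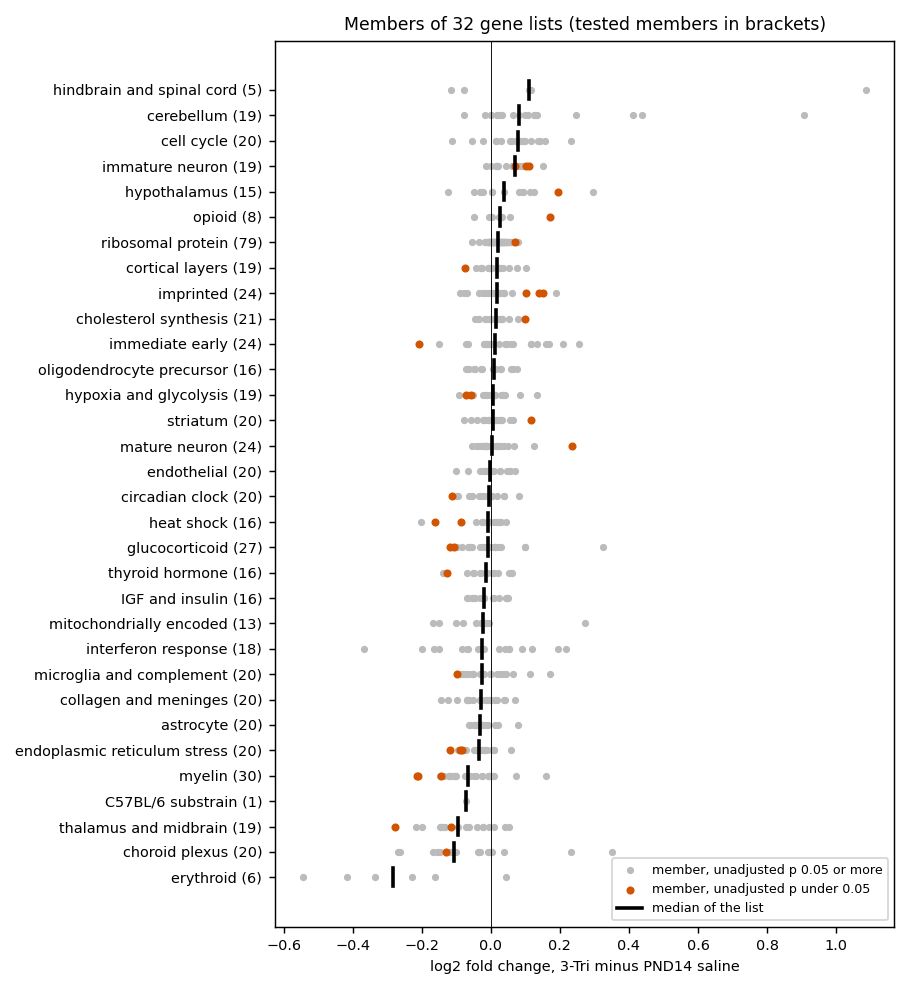
log2FC of 3-Tri against PND14 saline for the tested members of 32 gene lists, 1 row a list with the number tested in brackets. Grey points have an unadjusted p of 0.05 or more, orange points one under 0.05, and black bars are list medians, from -0.28 for erythroid genes to 0.11 for hindbrain and spinal cord. No point passed the adjusted test.

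Myelin genes had a median log2FC of -0.07 over 30 members, and 3 of them were lower at an unadjusted p under 0.05, none higher. Ermn, a cytoskeletal protein of myelinating oligodendrocytes, had 12.8, 14.9 and 22.5 CPM in 3-Tri and 15.4, 17.3 and 21.6 CPM in PND14, a log2FC of -0.21. Aspa, the oligodendrocyte enzyme that cleaves N-acetylaspartate, had -0.21 and Plekhh1 -0.14. Mbp, the basic protein of compact myelin, had 1558, 1878 and 2269 CPM in 3-Tri and 1701, 1985 and 2457 CPM in PND14, with a log2FC of -0.07 and an interval from -0.21 to 0.06. In whole-tissue RNA, fewer cells of a type and less RNA per cell cannot be told apart. Between the ID numbers of 3-Tri, 4429 against 4431, the median of the same genes was -0.15. Whether the 2 medians differ was not tested.

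Immature neuron genes lay on the other side, with a median log2FC of 0.07 over 19 tested members and 3 members higher at an unadjusted p under 0.05. These were Dpysl3 and Dpysl5, which act in axon growth, and the imprinted gene Nnat, with log2FC of 0.11, 0.07 and 0.10. Without 4431-1 the median of this list was 0.03. The imprinted list, with a median of 0.02, held Peg10 (0.14) and Zim1 (0.15) beside Nnat. On the endoplasmic reticulum stress list, 3 of 20 tested members were lower at an unadjusted p under 0.05, the chaperone genes Hspa5 (-0.12) and Pdia6 (-0.09) and the transcription factor gene Xbp1 (-0.08), with a list median of -0.04. On the microglia list Csf1r, the receptor that microglia need to survive, had 78.6, 89.5 and 97.7 CPM in 3-Tri and 90.7, 94.8 and 102.3 CPM in PND14, a log2FC of -0.10, and the list's median was -0.03.

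Regional lists with lower medians were choroid plexus, at -0.11 over 20 members, and thalamus and midbrain, at -0.10 over 19 tested members. Enpp2, which encodes autotaxin, was the 1 member of the choroid plexus list with an unadjusted p under 0.05. It had 194.7, 214.8 and 243.8 CPM in 3-Tri and 199.1, 237.9 and 273.3 CPM in PND14, a log2FC of -0.13 (unadjusted p = 0.0154). Ttr, the transthyretin gene that marks choroid plexus, overlapped, with 197 to 394 CPM in 3-Tri and 192 to 313 CPM in PND14. The log2FC of Ttr was 0.004. On the thalamus and midbrain list, Prkcd and Plekhg1 (-0.12) were the 2 members with an unadjusted p under 0.05. Single members of other lists had an unadjusted p under 0.05 as well. The heat shock co-chaperone genes Bag3 (-0.16) and Chordc1 (-0.09) and the glycolysis genes Eno1 (-0.07) and Aldoa (-0.06) were on the lower side, while Acan (0.23), the aggrecan of perineuronal nets, and Tac1 (0.12), the precursor of substance P, were on the higher side. The medians of these 4 lists lay between -0.01 and 0.01.

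Genes of red blood cells, whose RNA comes with blood left in the tissue, varied widely within both groups. Hba-a1, an alpha globin gene, ranged from 2.17 to 34.7 CPM in 3-Tri and from 2.69 to 36.6 CPM in PND14, with a log2FC of -0.34 and an interval from -0.99 to 0.32. The median over the 6 tested erythroid genes was -0.28. Cerebellar and brainstem genes were high in single libraries of both schedules. Gabra6, the receptor subunit of cerebellar granule cells, had 0, 0.251 and 11.1 CPM in 3-Tri and 0, 0.314 and 4.73 CPM in PND14, with a log2FC of 0.91 ± 0.74 (SE) that ran from 0.25 to 1.98 when single libraries were left out. It was at or above 3 CPM in 4424-2, 4424-6, 4431-3, 4431-4 and 4431-7. Slc6a4, the serotonin transporter of brainstem raphe neurons, reached 6.90 CPM in 4431-7 and 6.64 CPM in 4424-5, with medians of 0.627 and 0.490 CPM in 3-Tri and PND14. Eomes, a transcription factor of olfactory bulb neurons, ranged from 1.07 to 9.80 CPM in 3-Tri and from 1.07 to 11.2 CPM in PND14. Once 4431-1 was left out, Gabra6, the glycine transporter gene Slc6a5, Cbln3, Fat2 and Slc6a4 had the highest positive loadings on the first and on the second principal component. The library furthest out on that first component, 4424-6 at 30.7, also had the lowest total count of the 23, 8174598. The part of depth in this component was not tested. At the negative end of the first component Oxt, the oxytocin gene, had the largest loading, -0.0956 against 0.124 for Gabra6. These genes were named after that was seen.

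Differences between the ID numbers of 1 schedule give a measure of how far groups of pups differed at a constant schedule. Within PND14 saline, 4425 against 4424, edgeR called 0 of 19850 genes (0%), with 818 (4.12%) at an unadjusted p under 0.05. DESeq2 called 2 (0.0101%), Krt77 higher and Cpne9 lower in 4425 (1 gene or 0.00504% each way), with 3.54% of genes at an unadjusted p under 0.05. Within 3-Tri saline, 4429 against 4431, edgeR called 5 genes (0.0252%), all higher in 4429, with 1880 (9.47%) at an unadjusted p under 0.05. They were Clk1, a kinase that phosphorylates splicing factors, Prpf39, a splicing factor of the U1 particle, Utp14a, a ribosome assembly protein, Helq, a DNA repair helicase, and Ccdc39, a protein of motile cilia. DESeq2 called 68 (0.343%), of which 63 (0.317%) were higher in 4429, with 8.98% of genes at an unadjusted p under 0.05. Without 4431-1, edgeR called 47 genes (0.237%), again all higher in 4429, with log2FC from 0.187 to 1.03 and 2244 genes (11.3%) at an unadjusted p under 0.05. The edgeR count rested on single libraries and lay between 0 and 47 when each 3-Tri library was left out in turn.

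The 47 genes were looked at after their values were seen. They include Clk1, Prpf39, Pnisr, Pnn, Luc7l2, Luc7l3, Srsf11, Srek1, Prpf38b, Sfswap and Rbm5, which are known to act in pre-mRNA splicing, and the long non-coding RNAs Meg3 and Snhg11. They also include genes with other roles, such as the ryanodine receptor gene Ryr1 and the phosphatase gene Ptpn2. No list of splicing genes was fixed or tested. Clk1 had 53.4 to 62.9 CPM in 4429 and, without 4431-1, 43.0 to 52.0 CPM in 4431, ranges that did not overlap, with a log2FC of 0.36 ± 0.07 (SE, edgeR adjusted p = 0.0314). Pnisr had 110.9 to 121.6 CPM in 4429 and 83.4 to 100.6 CPM in 4431 without 4431-1, which itself had 110.1 CPM, and the log2FC without that library was 0.38. Meg3 had 1626 to 1968 CPM in 4429 and 1038 to 1477 CPM in 4431 without 4431-1, which had 1612 CPM, and the log2FC without it was 0.62. With 4431-1 included, both genes came close to the lowest value of 4429. For some of the 47 genes 4431-1 lay above the highest value of 4429. Pnn had 77.35 CPM in 4431-1 against at most 66.3 CPM in 4429, Luc7l2 219.6 against 204.5 and Snhg11 923.2 against 794. For others it lay below the rest of 4431, with 40.28 CPM for Clk1 and 7.842 CPM for Helq, whose lowest other value was 10.6 CPM.

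The PND14 values of these genes lay in between. For Clk1 the means were 57.01 CPM in 4424, 59.0 in 4425, 59.8 in 4429 and 46.5 in 4431 without 4431-1. In all 47 genes the lowest of the 4 means was that of 4431, and in 45 both PND14 means fell between those of 4431 and 4429. The genes were chosen for a difference between 4429 and 4431 in these same libraries. Such an order, and ranges of 4429 and 4431 that do not overlap, follow in part from that choice and are no separate evidence. In the schedule comparison the log2FC of Clk1 was -0.16 and that of Prpf39 -0.12, and leaving out ID number 4431 turned both to 0.05 and 0.04. Library features differed between the 2 ID numbers as well. The mean of Gabra6 was 0.304 CPM in 4429 and 3.15 CPM in 4431, and 3 of the 5 libraries of 4429 but 1 of the 7 of 4431 had sex genes against the label. The part of these features in the difference was not tested.

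**Figure D4:**
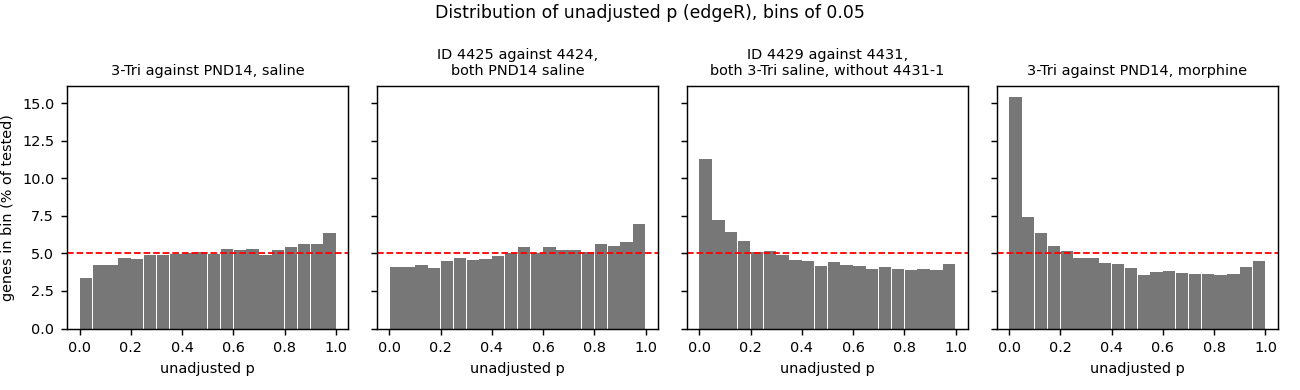
Percent of tested genes in each bin of unadjusted p (edgeR), with a dashed line at the 5 percent that an even spread would give. In the first bin are 3.38% of genes for the schedules in saline, 4.12% for 4425 against 4424, 11.3% for 4429 against 4431 without 4431-1, and 15.4% for the schedules in morphine.

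The 3-Tri and PND14 schedules were also compared in the 24 morphine libraries of day 14, which share no sample with the saline comparison. These 3-Tri pups received morphine before birth through the dam's pump and after birth by injection. The PND14 pups received it by injection only (10 mg per kg). Prenatal drug and handling therefore cannot be told apart in this contrast. In morphine, edgeR called 220 of 19673 genes (1.12%) between 3-Tri and PND14, 115 higher (0.585%) and 105 lower (0.534%), with 3037 (15.4%) at an unadjusted p under 0.05. The median SE was about the same, 0.0581 in morphine against 0.0585 in saline. The morphine values in this paragraph include the shallow PND14 morphine library that is named below with the interaction. How far the count, the list medians and the called members rest on that library is not shown here. Some gene groups lay on opposite sides in the 2 drugs. The median log2FC of the myelin list was 0.24 in morphine, with 6 members called, against -0.07 in saline, and Ermn had 0.41 (adjusted p = 0.0471) against -0.21. The immature neuron list had a median of -0.17 in morphine, with 9 members called, against 0.07 in saline, and Dpysl3 had -0.27 (adjusted p = 0.0196) against 0.11. In saline without 4431-1 the median of this list was 0.03 and Dpysl3 had 0.09. Other lists lay on the same side in both drugs, such as thalamus and midbrain, at -0.09 in morphine and -0.10 in saline. The difference between drugs was not tested for the lists.

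For single genes it was tested as an interaction over all 48 libraries, and edgeR called 3 of 19673 genes (0.0152%). Serinc5, a membrane protein gene, had 77.6, 87.3 and 92.4 CPM in 3-Tri saline and 83.1, 89.5 and 95.3 CPM in PND14 saline. In morphine it had 86.9, 90.1 and 96.4 CPM in 3-Tri and 70.8, 79.1 and 89.1 CPM in PND14, and PND14 morphine had the lowest median of the 4 groups, with ranges that overlapped. The saline minus morphine difference of the log2FC was -0.22 ± 0.04 (SE, adjusted p = 0.0122). Gap43, a growth cone protein of extending axons, had medians of 461.2 and 434.6 CPM in 3-Tri and PND14 saline and of 448.7 and 511.9 CPM in 3-Tri and PND14 morphine, a difference of 0.25 ± 0.05 (SE, adjusted p = 0.045). CT010467.1, annotated as ribosomal RNA, had medians of 1655 and 1657 CPM in the saline groups. Its highest saline value, 5360 CPM, was in the shallow library 4431-1, against at most 2619 CPM in PND14 saline. CT010467.1 reached 42870 CPM in PND14 morphine and at most 2076 CPM in 3-Tri morphine, a difference of 2.82 ± 0.54 (SE, adjusted p = 0.0276). Without the shallow libraries 4431-1 and 4422-4, the latter holding the 42870 CPM, edgeR called 4 genes. These were Serinc5 (-0.20, adjusted p = 0.0199), the myelin list gene Plekhh1 (-0.51, adjusted p = 0.0351), Armc2 (0.36, adjusted p = 0.0396) and Rac3, a small GTPase (0.36, adjusted p = 0.0351). The difference of Gap43 was then 0.21 (adjusted p = 0.0585) and that of CT010467.1 fell to 1.89 (adjusted p = 0.0606).

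**Figure D5:**
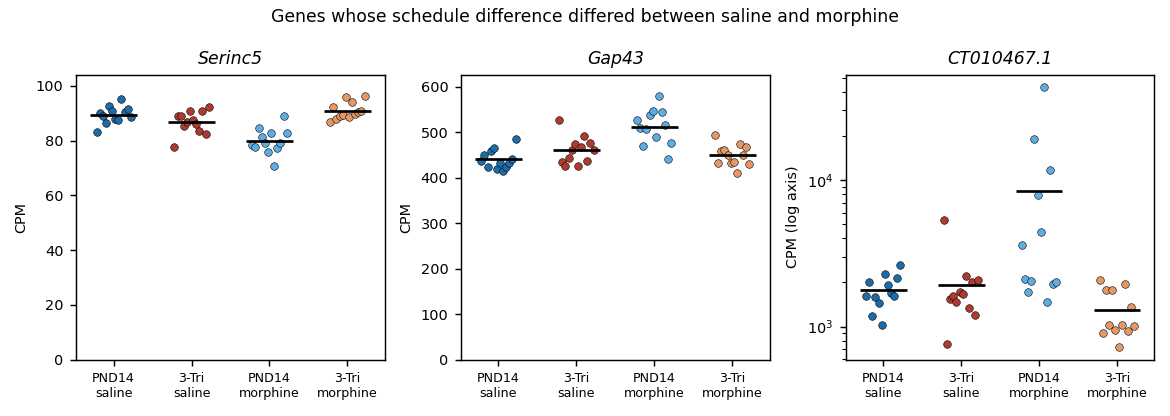
CPM of Serinc5, Gap43 and CT010467.1 (log axis) in the 12 libraries of each day 14 group, with a black line at the mean. The saline groups overlap for all 3 genes, and PND14 morphine has the lowest median for Serinc5 (79.1 CPM) and the highest for Gap43 (511.9 CPM) and CT010467.1 (2843 CPM).

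The schedules were also compared along the course that genes take with age. That course was taken from morphine libraries outside the saline comparison, PND14 against PND1, where edgeR called 16885 of 20305 genes (83.2%). The PND1 pups were exposed to morphine before birth only and the PND14 pups after birth only. Age, timing of the drug and cohort therefore cannot be told apart in that contrast, and age below means this contrast. Over the 8425 genes that rose with age the median schedule log2FC in saline was 0.00, and 50.2% lay above 0. Over the 7734 genes that fell with age the median was 0.01, and 56% lay above 0. The 3262 genes not called with age had about the same values, a median of 0.01 and 56.3% above 0. For the 698 genes that rose more than 4-fold the median was -0.02, and 39.1% lay above 0. For the 207 genes that fell more than 4-fold the median was 0.05, and 63.3% lay above 0. Whether these shares differ from that of the genes not called with age was not tested. How far they rest on the shallow saline library was not tested either. The age contrast also includes the shallow PND14 morphine library, and values without that library are not given here. Mobp, a myelin protein gene with an age log2FC of 8.24, had 267.6, 347.0 and 419.9 CPM in 3-Tri saline and 312.6, 373.6 and 453.4 CPM in PND14 saline, a log2FC of -0.14 (unadjusted p = 0.0539).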

How the data were processed

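Total RNA of the right hemisphere was made into mRNA libraries with the NEBNext Ultra II kit. The authors trimmed reads with Trim Galore, mapped them to mm10 with HISAT2 2.2.1, removed duplicate fragments and counted them per GENCODE gene with featureCounts 2.0.1. The deposited values used here are raw counts per gene and library, not normalised. The authors' own DESeq2 tables, which hold fold changes and p-values of morphine against saline and of sex, were not used.

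Of 55401 gene IDs, 55141 were matched to names and mm10 positions in GENCODE M21. Genes with low counts were removed with filterByExpr (minimum count 10). Counts were scaled by TMM and tested with edgeR 4.0.16 (quasi-likelihood F test, Benjamini-Hochberg adjustment, threshold 0.05) in R 4.3.3, over 4 groups of schedule and labelled sex, the schedule being averaged over sex labels. The ID numbers were fitted as 4 groups, and the day 14 saline and morphine groups as 4 groups of 48 libraries. Alternatives used DESeq2 1.42.0 and limma 3.58.1. CPM values are TMM-scaled. The fit was tested on simulated data. Confidence intervals of 95% came from the standard error and the moderated degrees of freedom.

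The members and gene lists were chosen with earlier results of these data known. By the naming rule the text gives called genes of the schedule comparison (there were none), from the up to 4 genes of every list with the lowest p those that the text turns on, up to 5 genes of the drug interaction, Xist and Ddx3y, and tissue markers. Other genes, among them those called between ID numbers, by DESeq2 or by sex, were chosen after their values were seen. Depth was 3113919 to 20369501 counts per library, and p-values measure the spread between pups. Libraries of an ID number differed by more than sampling noise (chi-square per gene of at least 1.64), so none was counted as a duplicate.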

Additional observations from a re-analysis of the deposited data

Results flagged for a closer look

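The schedule difference of 3 genes differed between saline and morphine by the edgeR interaction test. The saline minus morphine difference of the log2FC was -0.223 for Serinc5, 2.82 for CT010467.1 and 0.249 for Gap43. In each the saline groups overlapped. PND14 morphine had the lowest median of the 4 groups for Serinc5 and the highest for the other genes. DESeq2 gave adjusted p of 7.72e-05, 0.00106 and 0.00142 for the same 3 differences. Without the shallow libraries 4431-1 and 4422-4, edgeR gave -0.20 for Serinc5 (adjusted p = 0.0199), 1.89 for CT010467.1 (adjusted p = 0.0606) and 0.21 for Gap43 (adjusted p = 0.0585), so the last 2 no longer passed. The highest CT010467.1 value, 42870 CPM, was in 4422-4.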

How the results depend on the processing

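The schedule comparison in saline gave 0 called genes under every alternative run but 1. With counts summed per ID number it gave 1 (Gm47283, log2FC of 1.09). The count stayed at 0 when each library was left out in turn, without each ID number, without the 4 libraries with mismatched sex genes, without 4431-1 and 4424-6 (chosen after seeing the data), with DESeq2 size factors, without a filter, without the sex label, with ID number as a random effect (consensus correlation of -0.00534) and with GC and length correction. With the replicate number as a block it was 0 of 20708 genes, with 722 at an unadjusted p under 0.05. The numbers did not pair the samples: correlations of deviations ran from -0.215 to 0.295 over 12 pairs, and 0 samples correlated best with their own number.

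DESeq2 in place of edgeR gave 3 genes in labelled males, 3 in labelled females, 2 for 4425 against 4424, 68 for 4429 against 4431, 456 for the schedules in morphine and 85 for the saline minus morphine difference. The cause was not tested. The edgeR count for 4429 against 4431, 5 with all libraries, was 47 without 4431-1, 42 without 4431-4, 17 without 4429-3, 7 without 4431-6, 1 without 4431-3, and 0 without each of the other 7 libraries, a range of 0 to 47. For 4425 against 4424 it was 0 throughout.

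Among 64 named genes, the sign of the log2FC turned without ID number 4431 for Fkbp5 (-0.041), Fos (-0.027), Gabra6 (-1.93), Cbln3 (-1.42), Clk1 (0.051) and Prpf39 (0.045), and without 4424 for Fos (-0.071) and Npas4 (-0.016). With single libraries left out, Cbln3 ran from -0.188 (without 4431-3) to 1.02, Hba-a1 from -0.443 to 0.0088 (without 4425-6), and Gabra6 from 0.25 to 1.98. Genes with a mean log2 CPM of 1 or less, and variable genes such as globins, were limited by depth and spread.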
